A study of Homo sapiens with 2 samples.

Results

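Mitotic control cells are described here as the 239 of 956 uninduced control cells with the highest summed level of 9 mitosis genes. The 9 genes were AURKA, CENPE, NEK2, DLGAP5, HMMR, ASPM, TTK, KIF20A and KIF14. Members were chosen by the measured levels of these genes: their counts in each cell were scaled to the cell's total (CPM, as in bulk RNA sequencing), and the top quartile of control cells by the sum was kept. The other 717 control cells were the comparison. The quartile fixes the share at 25% of control cells, so the share does not measure how many cells were dividing.

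All cells were SK-N-BE(2)-C-pIND-HRASV12 cells, a human neuroblastoma line into which an HRASV12 gene under doxycycline control was put. HRASV12 is a permanently active mutant of the GTPase HRAS. The study sequenced RNA of single cells, caught in droplets, from 1 library of cells kept in 100 ng/ml doxycycline over 13 days (666 cells, HRASV12 induced) and from 1 library of untreated cells of the same duration (956 cells, uninduced control). The control cells carry the same inducible gene as the induced cells, and a line of this kind has no normal cells beside it. Neither library had a replicate, so differences were not tested and hold for these cells alone, and intervals cover counting error only.

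A cell that has copied its DNA passes through G2 and then through mitosis, in which chromosomes condense, attach to a spindle of microtubules and are pulled apart before the cell body divides. Cyclin B with CDK1 drives entry, Aurora and Polo-like kinases build the spindle, and the anaphase promoting complex ends the process by marking cyclin B and securin for destruction. Transcripts of these genes accumulate from G2 onwards, so RNA levels do not tell G2 cells from cells in mitosis.

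The rule score was continuous across control cells. The 3 lowest members had 684, 688 and 689 CPM, and the 3 highest cells outside had 681, 679 and 676 CPM. Members had a median of 1386 CPM and reached 9572 CPM, and other control cells had a median of 161 CPM in a range from 0 to 681 CPM. The 10th, 50th and 90th percentiles of all control cells were 28.2, 252 and 1606 CPM, with no empty stretch at the threshold. The genes of the rule were found broadly: each of the 239 members had counts for at least 7 of the 9 genes and 215 had counts for all 9, against 155 of the 717 other cells with all 9. ASPM, a spindle pole protein, supplied 29.2% of the members' rule counts and TTK, a checkpoint kinase, 4.00%. Ranking without ASPM kept 231 of the 239 cells, and leaving out any of the other rule genes kept 230 to 237.

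**Figure D1:**
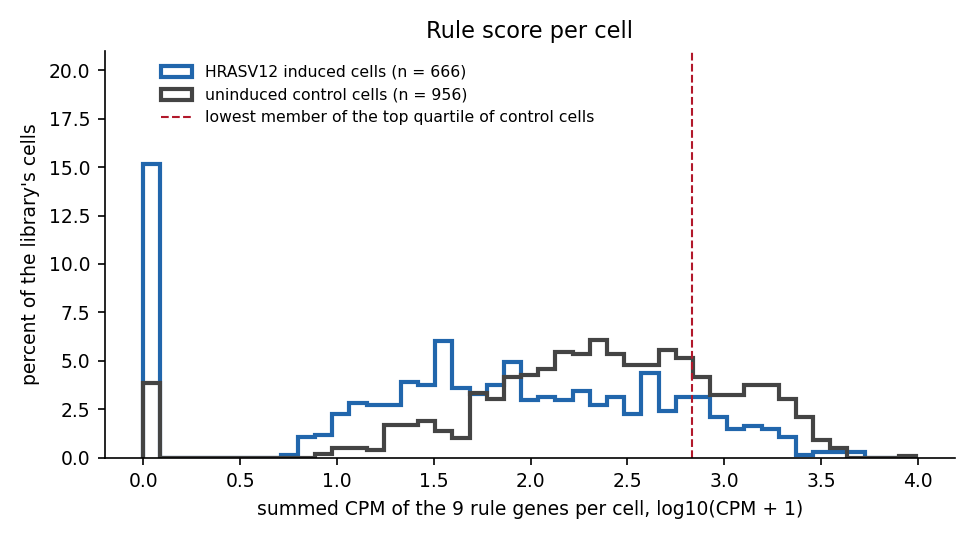
Distribution of the rule score, the summed CPM of 9 genes per cell on a log10(CPM + 1) axis, as percent of each library's cells, for HRASV12 induced and uninduced control cells. The dashed line marks the lowest of the 239 mitotic control cells at 684 CPM, and the control distribution passes through it without a gap.

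Members held more RNA counts than other control cells. The median was 96368 counts per mitotic cell (range 27648 to 215955), against 81130 per other control cell (range 24973 to 245837), a ratio of 1.19. The median number of genes per cell was 1.06 times as high in mitotic cells, and 1.03 times as high once every cell was thinned at random to 51000 counts, which left out 31 mitotic and 139 other cells. Among the 5% of control cells with the most counts were 13 mitotic cells (5.44% of them) and 35 other cells (4.88%). The median mitochondrial percent was 12.2 in mitotic and 13.6 in other control cells, and MALAT1, an RNA kept in the nucleus, had medians of 4277 and 2796 CPM. The part of depth, mitochondrial percent and MALAT1 in the differences below was not tested. With control cells limited to those at or above the 5th percentile of the mitochondrial and MALAT1 values, a setting chosen after seeing the data, 283 genes were higher and 65 lower. That limit sets no bound on depth and does not match the groups in either value. Depth within the limited cells was not compared. All 1622 cells are marked as singlets in the deposited annotation, and no barcode was shared by the libraries.

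The label was checked against 14 mitotic markers that the rule did not use: PLK1, CCNB1, CCNB2, CDC20, CDK1, TOP2A, MKI67, TPX2, BUB1, UBE2C, CDCA8, NUSAP1, KIF11 and KIF23. In summed counts 14 of the 14 were at least 2-fold higher in mitotic than in other control cells, with log2 ratios from 1.45 to 2.59. Adrenergic neuroblastoma factors were present in both groups: PHOX2A stood at 663 CPM in mitotic and 715 CPM in other control cells, HAND2 at 248 and 251 CPM, and GATA3 at 228 and 203 CPM. Markers of other cell types were low. Of immune and erythroid markers none reached 10 CPM, with sums of 1.15 and 2.10 CPM in mitotic cells, against 2.17 and 1.63 CPM in other control cells, and CD3D and HBA1 had no count in mitotic cells. Endothelial markers summed to 88.6 CPM in mitotic and 115 CPM in other control cells, mostly EGFL7, with CDH5 and VWF at or under 1.06 CPM in both. Schwann cell precursor markers summed to 36.3 and 47.6 CPM, and epithelial markers to 25.2 and 27.9 CPM, in the same order.

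Because the 9 genes and all others were measured in the same cells, ratios between members and other control cells are given as descriptions. A gene was called measured with at least 10 CPM in either group, log2 ratios carry a pseudocount of 1 CPM, and higher or lower means at least 1.5-fold. Leaving out the rule genes, 8822 genes were measured, of which 298 (3.38%) were higher and 66 (0.748%) lower in mitotic than in other control cells. The median log2 ratio of all genes was 0.09, and 90% of the ratios ran from -0.31 (5th percentile) to 0.49 (95th percentile). Higher genes were 81.9% of those called, and this split depended on the scaling: it was 59.3% with TMM factors (210 higher, 144 lower), 59.2% with DESeq2 size factors (209 higher, 144 lower) and 69.1% where ribosomal protein and mitochondrial genes were taken out of the totals (235 higher, 105 lower). TMM factors moved the median of all genes by -0.11, DESeq2 size factors by -0.11 and the reduced totals by -0.07. Of the 117 genes at least 2-fold higher, 74 (63.2%) belonged to the 11 mitosis lists, and 6 genes were at least 2-fold lower.

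Mitosis genes outside the rule were higher together. The 11 lists held 167 genes, of which 161 were measured and 6 lay under 10 CPM in both groups. Of the 161, 102 were higher and 0 lower, with a median log2 ratio of 0.86 (order-statistic interval over genes 0.68 to 1.08), beside 0.09 for all genes. The genes behind this median were those that passed the floor, and some passed it only through the mitotic cells.

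Entry into mitosis was represented by 20 measured cyclins, kinases and their regulators, of which 15 were higher and 0 lower (median log2 ratio 1.05). PLK1 (ENSG00000166851.15), the Polo-like kinase that acts from centrosome maturation to cytokinesis, stood at 294 CPM in mitotic and 48.1 CPM in other control cells, which is 6.12 times as much (7435 and 3368 counts, exact interval of the ratio 5.88 to 6.38). In cells thinned to 51000 counts PLK1 had a lowest value of 1, a median of 14.5 and a highest value of 85 counts in 208 mitotic cells, against 0, 1 and 16 in 578 other cells. The ranges overlapped, and 79.3% of the mitotic cells lay above the 95th percentile of the others, which was 8 counts. CCNB1, the main mitotic cyclin, stood at 441 and 78.4 CPM, and its partner CDK1 at 235 and 85.4 CPM, in mitotic and other control cells. CCNB2 (log2 ratio 2.16), CCNA2 (1.72), the phosphatase CDC25C (2.04) and CCNF (1.36) were higher as well, whereas CDC25B had a smaller ratio (0.90). Among the regulators of entry the values differed. FOXM1, a transcription factor of G2 genes, stood at 18.5 CPM in mitotic and 9.82 CPM in other control cells (0.85), and WEE1, a kinase that holds CDK1 back, at 44.4 and 27.4 CPM (0.68), which was under 1.5-fold in 2 of the alternatives. The inhibitory kinase PKMYT1 stood at 25.7 and 23.5 CPM, CDC25A, which also acts at the start of replication, at 19.8 and 20.3 CPM, and the transcription factor MYBL2 at 151 and 135 CPM.

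Spindle genes had some of the largest ratios. Of 11 measured kinesins 10 were higher and 0 lower (median 1.63), led by KIF2C, which removes tubulin from microtubule ends at kinetochores (59.0 CPM in mitotic and 12.9 CPM in other control cells, log2 ratio 2.11), and KIF23, a part of centralspindlin (110 and 29.2 CPM, 1.88). KIF2A, a relative of KIF2C that also acts in neurons, stood at 94.8 and 85.6 CPM. Of 18 spindle assembly factors 13 were higher and 0 lower (median 1.68), among them PSRC1 (2.37) and TPX2, which activates AURKA on the spindle (404 and 115 CPM). The augmin subunits HAUS1 and HAUS6 had log2 ratios of 0.15 and 0.10, and NUMA1, which resides in the nucleus between divisions, 0.12. Of 15 centrosome and centriole genes 8 were higher and 0 lower (median 0.65), with CNTRL, a centriole protein, at 30.9 and 10.3 CPM and PLK4, the kinase that starts centriole copying, at 22.0 and 11.3 CPM (0.90). Among 7 measured tubulins 1 was higher, TUBB4B, at 989 CPM in mitotic and 429 CPM in other control cells, while TUBB had a log2 ratio of 0.49 and TUBA1A of 0.05. The share of higher genes over all measured genes was 3.38%. Tubulin genes resemble each other, so counting may have split reads between them.

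Kinetochore genes had log2 ratios spread over a wide range. Of 34 measured centromere and kinetochore genes 17 were higher and 0 lower (median 0.58). CENPA, the histone H3 variant that marks centromeres, stood at 179 CPM in mitotic and 40.1 CPM in other control cells (log2 ratio 2.13), and CENPF, a large protein of the outer kinetochore, at 1007 and 248 CPM (2.02). The microtubule-binding NDC80 complex was uneven: NDC80 (1.86) and NUF2 (1.85) had larger log2 ratios than SPC25 (1.25) and SPC24 (0.88). The MIS12 complex had lower ones, with MIS12 at 0.35, PMF1 at 0.39, NSL1 at 0.23 and DSN1 at 0.21, and so had many subunits of the constitutive centromere network, such as CENPU (0.27), CENPQ (0.12) and CENPK (0.41). Of 6 measured checkpoint genes 5 were higher and 0 lower (median 0.87), with the kinases BUB1 (46.4 and 9.05 CPM, 2.24) and BUB1B (121 and 31.0 CPM, 1.93) ahead of MAD2L1 (0.88) and BUB3 (0.86). Each of the 6 measured genes of the chromosomal passenger complex and shugoshins was higher (median 1.71): SGO2, a protector of cohesin at centromeres, stood at 238 and 48.3 CPM (2.28), INCENP, the scaffold of the complex, at 31.3 and 8.01 CPM (1.84), and the kinase AURKB at 108 and 35.3 CPM (1.59).

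Genes of the anaphase promoting complex differed widely. Of 20 measured genes 7 were higher and 0 lower, and the median log2 ratio of 0.18 was close to that of all genes. CDC20 (ENSG00000117399.14), the activator that the checkpoint holds back, stood at 127 CPM in mitotic and 22.5 CPM in other control cells (2.44). UBE2C, the ubiquitin-conjugating enzyme of the complex, stood at 773 and 174 CPM (2.15), and UBE2S, which extends the chains, had a log2 ratio of 0.76. In thinned cells UBE2C had a lowest value of 1, a median of 40 and a highest value of 104 counts in mitotic cells, against 0, 7 and 51 in other cells. The substrate PTTG1 (securin) was higher too, at 512 and 251 CPM (1.03). ESPL1 (separase, which securin inhibits) was also higher, at 39.5 and 13.2 CPM (1.51). Of the core subunits CDC27 was higher (74.4 and 36.2 CPM, 1.02), whereas ANAPC11, the catalytic RING subunit, stood at 357 and 351 CPM, ANAPC5 at 91.2 and 87.5 CPM and CDC26 at 85.2 and 99.8 CPM. FBXO5 (EMI1), an inhibitor of the complex, stood at 61.9 and 54.4 CPM (0.18). FZR1, the activator that acts after anaphase and in G1, stood at 22.3 and 10.4 CPM (1.02).

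Genes of chromosome structure and of cell division followed. Of 12 condensin and mitotic chromosome genes 10 were higher and 0 lower (median 1.23): TOP2A, which untangles sister chromatids, stood at 649 CPM in mitotic and 164 CPM in other control cells (1.98), and MKI67, the coat protein of mitotic chromosomes, at 379 and 113 CPM (1.74). The condensin I subunits NCAPG (1.36), NCAPD2 (1.33) and NCAPH (1.00) had larger log2 ratios than the condensin II subunits NCAPG2 (0.70), NCAPH2 (0.39) and NCAPD3 (0.37). Among 10 cohesin genes 3 were higher and 0 lower (median 0.43), with RAD21, the ring subunit that separase cuts, at 243 and 121 CPM (1.00). Of 9 measured cytokinesis genes 8 were higher and 0 lower (median 1.53), among them ECT2, which activates RhoA at the cell equator (147 and 43.7 CPM, 1.73), and ANLN, a scaffold of the contractile ring (94.9 and 34.0 CPM, 1.46). SEPTIN9 stood at 89.9 and 93.4 CPM. In the nuclear envelope, which is taken apart in mitosis, 3 of 11 genes were higher: LMNB1 (1.09), the lamin B receptor LBR (0.98) and TMPO (0.73), with the lamin LMNA at 0.35. Of 15 HMG and histone variant genes 4 were higher and 0 lower, led by HMGB2, an abundant chromatin protein (679 and 285 CPM, 1.25). These list counts stand beside 3.38% higher and 0.748% lower among all measured genes.

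**Figure D2:**
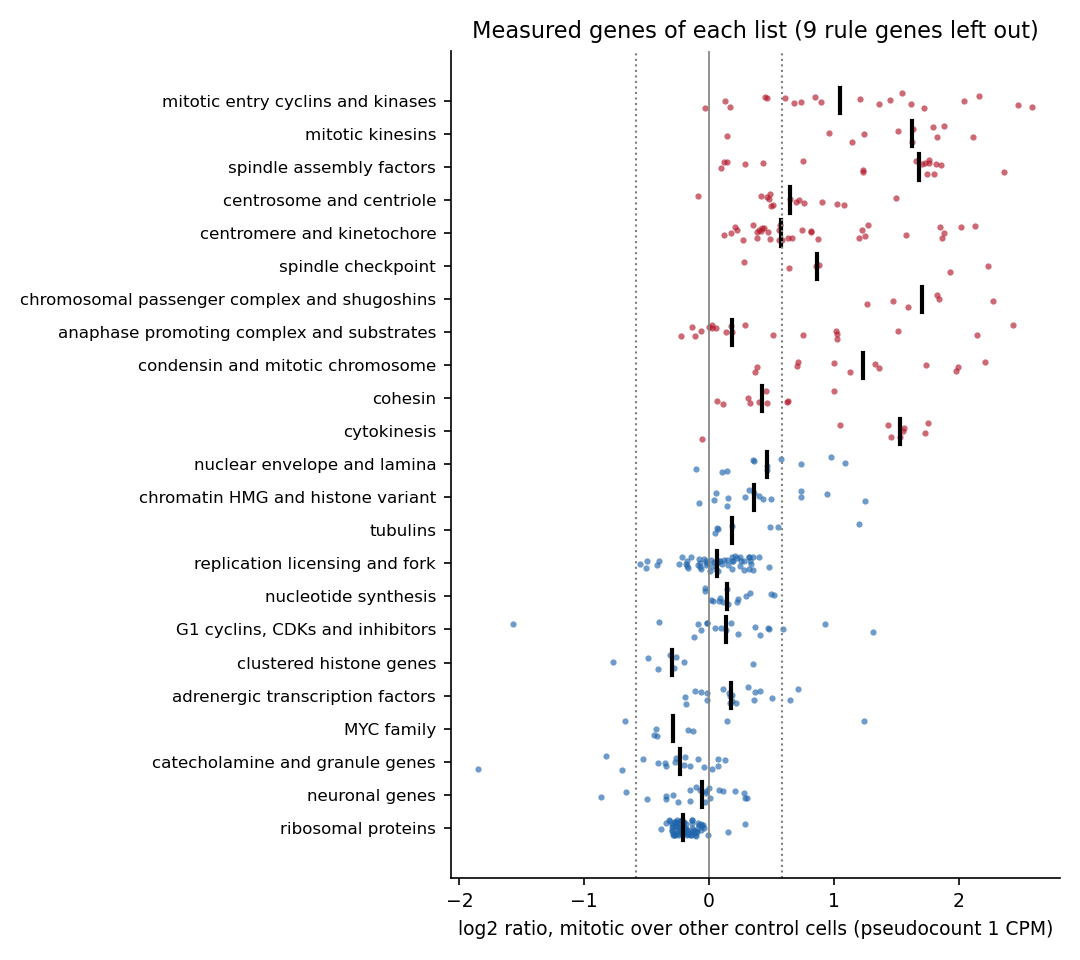
Log2 ratio of mitotic over other control cells for each measured gene (points) in 23 lists, with the list's median as a black bar, dotted lines at 1.5-fold and mitosis lists in red. Kinesins, spindle assembly factors and the chromosomal passenger complex have medians of 1.63, 1.68 and 1.71, while the replication list lies around 0.06.

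Many promoters of these genes share an element. Genes silenced before G2 by the DREAM complex and later turned on with MYBL2 and FOXM1 often carry a cell cycle genes homology region (CHR) near their start, and genes of replication more often carry an E2F site. The RefSeq promoter windows (GRCh38.p14, 250 bases before to 50 bases after the start) were searched for the CHR letters TTTGAA or TTCGAA on either strand. Of the genes at least 2-fold higher outside the rule, 98 of 117 had a window, and 65 of those (66.3%) held the letters, against 11.05% of 6996 windows of measured genes and 16.6% of all 27305 windows. Among genes at least 1.5-fold higher the share was 48.0% (117 of 244), and among those at least 1.5-fold lower 13.0% (6 of 46). Within the mitosis lists the letters stood in 72 of 139 windows (51.8%), and in 13 of 51 (25.5%) for the list genes that were not higher. The E2F letters TTTCCCGC or TTTGGCGC, on either strand, stood in 45.5% of replication list windows (20 of 44), in 3.06% of those of genes at least 2-fold higher and in 4.12% of measured genes. They also stood in 10.8% of mitosis list windows (15 of 139), and in 19.6% (10 of 51) for the list genes that were not higher. CHR letters stood in 4.55% of replication list windows. A CCAAT box (CCAAT, either strand) was found in 70.4% of windows of genes at least 2-fold higher and in 38.3% of those of measured genes, and in 65.9% (29 of 44) of those of the replication list, whose genes were not higher. These matches describe letters, and none shows that a factor binds there.

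The windows of 4 genes at least 2-fold higher in mitotic cells are shown as examples from entry (PLK1, CCNB2), exit (CDC20) and the centromere (CENPA), with the CHR letters in capitals. All 4 hold the letters, against 65 of the 98 windows of such genes, so they do not show how common the letters are. The windows of KIF23 (1 match) and of the lower gene RAB3A (0 matches) were also taken out and are not shown. PLK1 lies at chr16:23678639-23678938, CCNB2 at chr15:59104896-59105195, CDC20 at chr1:43358731-43359030 and CENPA at chr2:26785806-26786105, each on the plus strand. Counted from the RefSeq start, the capitals begin at -29 in PLK1, -29 in CCNB2, -178 and -65 in CDC20 and -18 in CENPA. In these picked windows 4 of the 5 matches thus lie close to the start.
PLK1: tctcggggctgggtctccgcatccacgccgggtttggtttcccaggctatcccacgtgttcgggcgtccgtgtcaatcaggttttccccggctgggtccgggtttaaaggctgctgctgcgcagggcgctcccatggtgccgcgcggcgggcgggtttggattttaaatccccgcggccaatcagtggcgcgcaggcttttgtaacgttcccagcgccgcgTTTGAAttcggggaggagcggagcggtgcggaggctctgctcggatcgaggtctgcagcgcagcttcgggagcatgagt
CCNB2: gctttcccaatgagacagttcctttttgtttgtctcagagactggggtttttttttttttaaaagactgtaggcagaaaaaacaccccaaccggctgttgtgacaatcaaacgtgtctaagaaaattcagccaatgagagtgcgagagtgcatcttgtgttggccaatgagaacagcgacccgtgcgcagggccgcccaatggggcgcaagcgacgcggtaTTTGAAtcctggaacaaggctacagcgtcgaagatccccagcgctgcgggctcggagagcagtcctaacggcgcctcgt
CDC20: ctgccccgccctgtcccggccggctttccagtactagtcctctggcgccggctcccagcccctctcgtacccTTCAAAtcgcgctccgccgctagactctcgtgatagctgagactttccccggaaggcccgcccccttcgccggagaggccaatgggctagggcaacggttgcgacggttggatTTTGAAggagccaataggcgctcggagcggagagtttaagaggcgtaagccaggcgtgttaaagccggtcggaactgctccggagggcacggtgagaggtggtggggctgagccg
CENPA: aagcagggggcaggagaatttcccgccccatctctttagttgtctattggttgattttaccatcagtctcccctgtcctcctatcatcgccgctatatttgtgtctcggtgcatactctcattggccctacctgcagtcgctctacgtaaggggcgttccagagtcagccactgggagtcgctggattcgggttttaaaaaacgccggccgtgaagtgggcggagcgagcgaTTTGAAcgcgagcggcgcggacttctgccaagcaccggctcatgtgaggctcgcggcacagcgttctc

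Single cells showed the same shift at equal depth. The 161 genes of the mitosis lists took a median of 220 counts per 10000 in 208 thinned mitotic cells (lowest 135, highest 649), against 113 in 578 other control cells (lowest 27.6, highest 208). Of the mitotic cells 208 of 208 lay above the median of the other cells and 182 (87.5%, Clopper-Pearson interval 82.2 to 91.7) above their 95th percentile of 173. The overlap between both groups was thus limited to cells from 135 to 208 counts per 10000. Ranking control cells by the sum of these genes in place of the 9 gave a top quartile that held 208 of the 239 members (87.0%). The rule score and this sum had a Pearson r of 0.92 over the 208 mitotic cells and 0.78 over the 578 other cells. The groups were thus split by genes that vary with this sum.

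**Figure D3:**
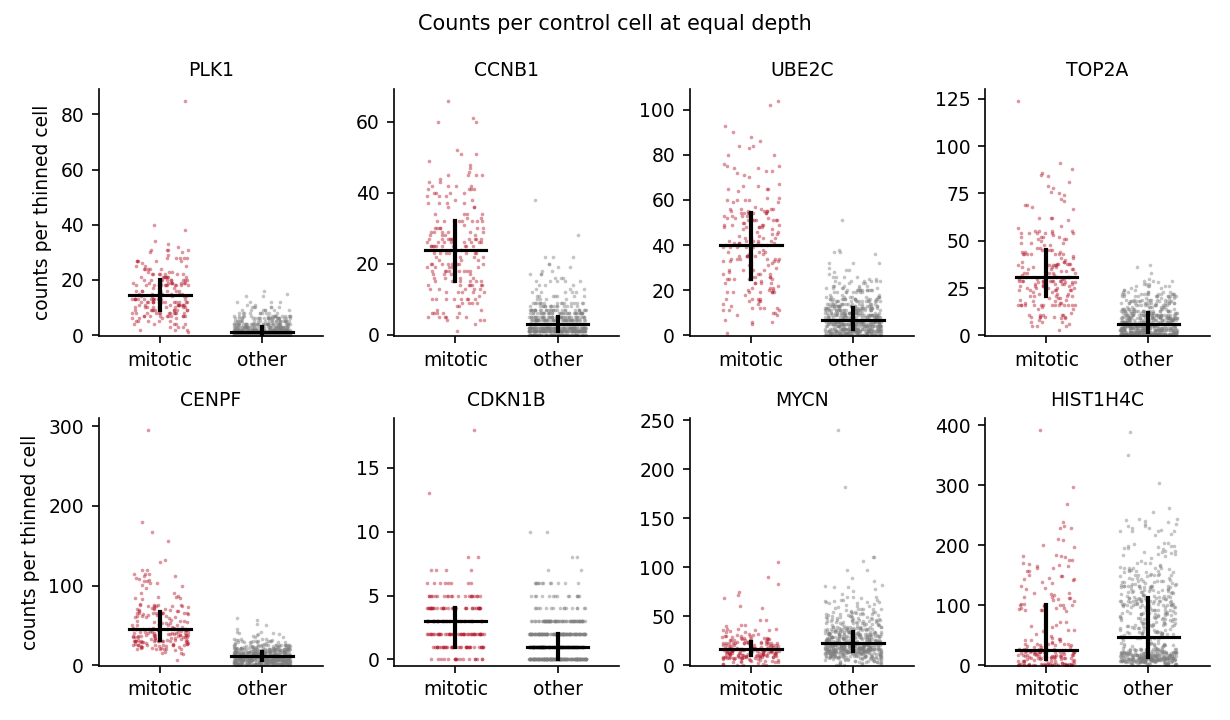
Counts per control cell, each cell thinned to 51000 counts, for 8 genes in 208 mitotic cells (left) and 578 other cells (right), with the median (line) and the interquartile range (bar). Median counts of PLK1 are 14.5 and 1, of UBE2C 40 and 7, and of MYCN 16 and 22.5, in mitotic and other cells.

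Replication genes were near level between both groups. Of 55 measured genes of replication licensing and the fork 0 were higher and 0 lower, with a median log2 ratio of 0.06, which is near the 0.09 of all genes. Their log2 ratios ran from -0.56 to 0.48. On the higher side lay LIG1, BRIP1 and POLD1. In thinned cells their means were 1.90, 0.81 and 1.17 counts in mitotic and 1.36, 0.63 and 0.95 counts in other control cells. The S phase markers CDC6, a loader of the MCM helicase, and DTL, which directs CDT1 to destruction, stood at 34.9 and 42.7 CPM in mitotic cells, against 49.8 and 63.3 CPM in other control cells (log2 ratios -0.50 and -0.56), while GINS2 stood at 153 CPM in both and PCNA at 127 and 134 CPM. None of 15 nucleotide synthesis genes passed 1.5-fold, with RRM2, a subunit of ribonucleotide reductase, nearest at 209 and 145 CPM (0.52). The level medians hide a wide spread among the other cells. In thinned cells the replication list took 36.7 counts per 10000 in the median mitotic cell and 37.4 in the median other cell, but the 5th to 95th percentiles were 23.7 to 55.9 in mitotic and 9.41 to 74.7 in other control cells. The mitotic cells thus lay in the middle of the range of the others. As a description over cells that share a library and a depth, the sums of the mitosis and replication lists had a Pearson r of -0.048 in 208 mitotic cells and 0.69 in 578 other cells. The top quartile of control cells by the replication list held 27 of the 239 mitotic cells (11.3%, Clopper-Pearson interval 7.58 to 16.0), against 212 of the 717 other cells (29.6%).

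**Figure D4:**
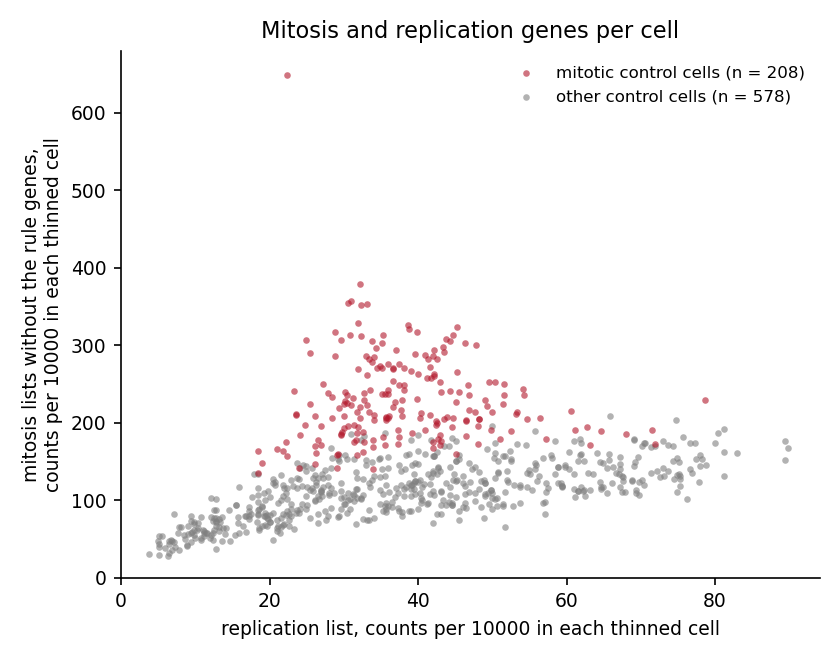
Counts per 10000 of the mitosis lists without the rule genes (vertical) against those of the replication list (horizontal) in each control cell thinned to 51000 counts, for 208 mitotic and 578 other cells. Mitotic cells lie from 135 to 649 on the vertical axis, mostly above the others, which reach 208, and cluster in the middle of the replication axis.

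G1 genes included members on both sides. CCNE1 (ENSG00000105173.14), the cyclin that starts S phase with CDK2, stood at 4.19 CPM in mitotic and 14.4 CPM in other control cells, which is 0.291 times as much (106 and 1009 counts, exact interval of the ratio 0.236 to 0.356). It was the 1 lower gene of 19 measured cyclins, CDKs and inhibitors of G1, of which 3 were higher. Among all measured genes 3.38% were higher and 0.748% lower. CDKN1B (p27), an inhibitor of cyclin E and CDK2, stood at 56.2 and 29.0 CPM (0.93), CDKN3, a phosphatase of CDK2, at 241 and 95.9 CPM (1.32), and CDKN2C, an inhibitor of CDK4 and CDK6, at 74.8 and 49.1 CPM (0.60). CDKN2C is at the threshold and was under 1.5-fold in 7 of the alternatives. In thinned cells CDKN1B had a median of 3 counts (range 0 to 18) in mitotic and 1 (0 to 10) in other control cells, so the groups overlapped widely. CCND1 stood at 461 and 446 CPM, CDK4 at 45.3 and 45.8 CPM and E2F1 at 61.6 and 81.7 CPM.

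Along the rule score the lists took different courses. Summed CPM of the mitosis lists were 7610, 10870 and 14227 in the lowest, the second and the third quartile of control cells, 19129 in the lower-scoring and 26461 in the higher-scoring members, with members split at their median score. The replication list took 2405, 4005, 4349, 4014 and 3648 CPM in the same order, with its peak in the third quartile. Clustered histone genes, which are made during S phase and whose transcripts mostly lack a poly(A) tail, had their summed level peak there too, at 677, 1747, 2585, 1975 and 950 CPM. HIST1H4C, which supplied most of these counts, stood at 478, 1437, 2151, 1658 and 756 CPM, and HIST1H1D, a linker histone, at 13.1, 45.9, 65.4, 42.4 and 17.4 CPM. HIST1H2AC, the 1 lower gene of this list, took another course, at 50.9, 34.1, 23.0, 21.6 and 17.6 CPM, with its highest level in the lowest quartile. CCNE1 was highest at a lower score, in the second quartile, at 12.2, 18.2, 12.6, 5.73 and 2.30 CPM. Ribosomal proteins summed to 172464 CPM in the lowest quartile and 136410 CPM in the higher-scoring members.

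**Figure D5:**
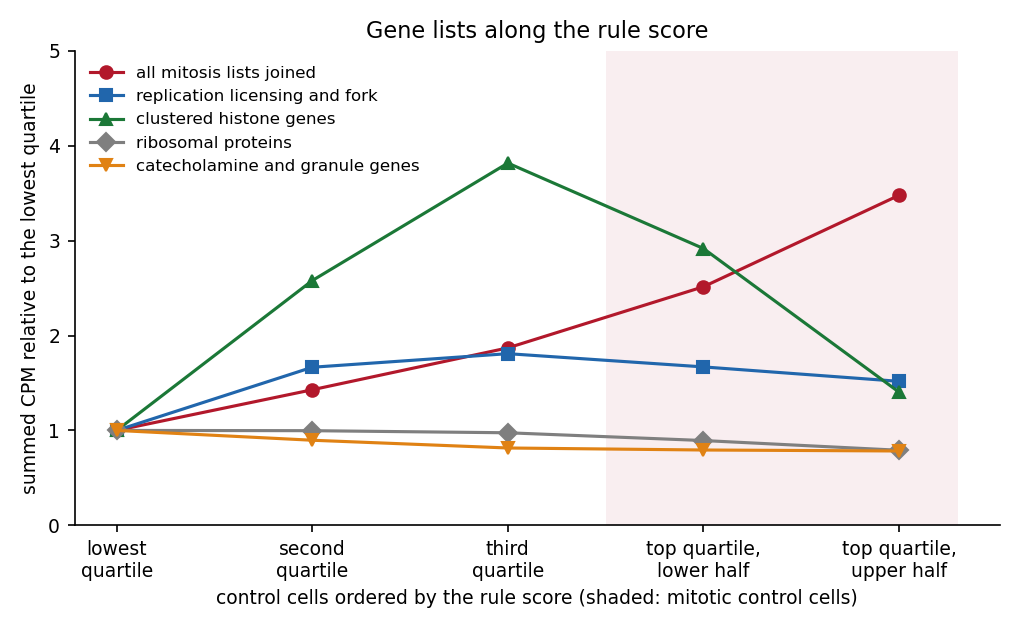
Summed CPM of 5 gene lists in control cells ordered by the rule score, relative to the lowest quartile, with the shaded top quartile (the mitotic control cells) split at its median score. The mitosis lists climb from 7610 to 26461 CPM, while the sum of clustered histone genes, mostly HIST1H4C, peaks in the third quartile at 2585 CPM and is 950 CPM in the highest-scoring members.

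The members also varied among themselves. Between the higher-scoring and the lower-scoring members 146 of 8861 genes (1.65%) were higher and 45 (0.508%) lower, the rule genes left out. Outside the rule CENPF stood at 1398 CPM in the higher-scoring and 690 CPM in the lower-scoring members, TOP2A at 877 and 465 CPM and CDC20 at 167 and 94.1 CPM. HIST1H4C (756 and 1658 CPM) and HIST1H1D (17.4 and 42.4 CPM) ran the other way. Both histone genes thus stood higher in the members that lay nearer to the threshold. In thinned cells HIST1H4C had a lowest value of 0, a median of 25.5 and a highest value of 392 counts in mitotic cells, against 0, 47 and 389 in other cells, so both groups spanned the whole range. The copies of histone genes resemble each other, and their counts may be shared between them.

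Genes that mark the neuroblastoma cell state were taken next. Of 20 measured adrenergic transcription factors 2 were higher and 0 lower (median 0.18), beside 3.38% higher and 0.748% lower among all measured genes: EYA1, a transcriptional cofactor (31.1 CPM in mitotic and 18.6 CPM in other control cells, 0.71), and DACH1 (22.6 and 14.0 CPM, 0.65), which was under 1.5-fold in 6 of the alternatives. MYCN (ENSG00000134323.12), the amplified oncogene of this line, stood at 383 and 515 CPM (-0.42), and in thinned cells had a lowest value of 0, a median of 16 and a highest value of 105 counts in mitotic cells, against 0, 22.5 and 240 in other cells. Among 8 measured genes of the MYC family MXD3, a repressor that pairs with MAX, was higher (43.3 and 17.8 CPM, 1.24) and MXI1, a related repressor, lower (15.3 and 25.1 CPM, -0.68). Of 19 nucleolar and MYC target genes 0 were higher and 0 lower. Of 82 measured ribosomal protein genes likewise 0 passed 1.5-fold in either direction, with a median log2 ratio of -0.21. HRAS stood at 106 and 111 CPM. Since reads come from transcript 3' ends, native HRAS and the inducible gene were not separated.

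Secretory and neuronal genes contributed several of the lower genes. Of 18 measured catecholamine and granule genes 0 were higher and 3 lower (median -0.23), beside 3.38% higher and 0.748% lower among all measured genes. DBH, which makes noradrenaline from dopamine, stood at 65.1 CPM in mitotic and 106 CPM in other control cells (-0.70), and SCG5, a chaperone of the prohormone convertase PCSK2, at 12.5 and 23.0 CPM (-0.83). DBH was under 1.5-fold in 1 of the alternatives. CARTPT, a neuropeptide precursor, had the lowest log2 ratio of the genes with at least 25 CPM (379 and 3967 counts, -1.85), but its counts came from few cells. Only 41 control cells had at least 5 CARTPT counts, 3 of them mitotic and 38 other, and 1 cell held 80.2% of the counts of the mitotic cells. Without these 41 cells CARTPT stood at 1.84 CPM in mitotic and 2.80 CPM in other control cells. With the top 10% of control cells as members its log2 ratio was -0.34. CHGA, a core granule protein, stood at 984 and 1011 CPM, and DLK1, a marker of chromaffin cells, at 1264 and 1408 CPM. Of 22 neuronal genes 0 were higher and 2 lower, among them TAGLN3 (9.50 and 18.2 CPM, -0.87).

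Other lower genes included RAB3A, a GTPase of synaptic vesicles (15.4 CPM in mitotic and 32.3 CPM in other control cells, log2 ratio -1.03), IGFBP5, a binding protein of insulin-like growth factors (333 and 557 CPM, -0.74), UNG, the uracil-DNA glycosylase active around S phase (18.1 and 30.9 CPM, -0.74), and ARC, an activity-regulated gene of neurons (39.5 and 65.6 CPM, -0.72). LCN1, RAB40B, HIST1H2AC, NR2C2AP, GACAT3, IFI27L2, INAFM1, MXI1 and NINJ1 completed the 15 lowest. UNG, GACAT3, MXI1 and NINJ1 were under 1.5-fold in at least 1 of the alternatives. VIM, the intermediate filament vimentin, was the 1 lower gene of 16 mesenchymal genes (128 and 202 CPM, -0.65). Its level was 392 CPM in the lowest quartile of the rule score, 157 and 104 CPM in the second and the third, and 115 and 145 CPM in the lower-scoring and higher-scoring members, and with the top 10% as members its log2 ratio was -0.26. Of 20 immediate-early genes and 16 integrated stress response genes 0 passed 1.5-fold. For these lists, the mesenchymal genes and the lists that follow, the shares over all measured genes were 3.38% higher and 0.748% lower. Among 12 heat shock genes 2 were higher, HSPA1A (50.9 and 27.9 CPM, 0.84) and its cochaperone BAG3 (26.4 and 16.1 CPM, 0.67), and BAG3 was under 1.5-fold in 5 of the alternatives. Of 10 MAPK output genes ETV1, an ETS factor, was higher (22.3 and 13.7 CPM, 0.67), while DUSP4, an ERK phosphatase, stood at 113 and 144 CPM. ETV1 was under 1.5-fold in 3 of the alternatives.

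Of the 117 genes at least 2-fold higher, 43 were in none of the mitosis lists. Those named here were chosen after their values were seen: SMTN, a smooth muscle cytoskeleton protein (19.98 CPM in mitotic and 4.10 CPM in other control cells, log2 ratio 2.04), GAS2L3, which links actin and microtubules (43.6 and 10.1 CPM, 2.00), the helicase PIF1 (71.5 and 17.9 CPM, 1.94), KPNA2, a nuclear import receptor (460 and 144 CPM, 1.67), and ARL6IP1, a membrane protein of the endoplasmic reticulum (424 and 174 CPM, 1.28). DEPDC1, which the rule for named genes picked, stood at 98.9 and 18.3 CPM (2.37).

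The induced library was not used to set the threshold. Its cells were split by the same rule score, with the control threshold applied unchanged. Of 666 induced cells 81 (12.2%, Clopper-Pearson interval 9.78 to 14.9) reached it, against 239 of 956 control cells (25%, fixed by the rule). Between the induced cells at or above the threshold and the other induced cells, 1138 of 9018 genes (12.6%) were higher and 654 (7.25%) lower. The higher share of calls was 63.5%, but 27.0% with TMM factors, which moved the median of all genes by -0.24. The mitosis lists had 136 of 161 genes higher and 1 lower, with a median log2 ratio of 1.55 in induced cells and 0.86 in control cells. The ratio was larger in the induced library for 150 of these 161 genes. The comparison cells were not alike: their median rule score was 44.6 CPM in other induced and 161 CPM in other control cells. The mitosis lists summed to 21920 CPM in induced cells at or above the threshold and 22411 CPM in mitotic control cells. In the other cells the sums were 8389 CPM (induced) and 11248 CPM (control). The part of these levels in the larger ratios was not tested. Of 287 genes that were higher in mitotic control cells and measured in both libraries, 263 were higher in the induced contrast and 0 lower, and of 56 lower genes 39 were lower and 1 higher. Across the 8497 genes measured in both, the log2 ratios had a Pearson r of 0.80, a description across genes, which are not independent replicates. Both libraries were split by the score of the same rule genes, so genes that vary with this score can differ alike in both. The shared calls and this r are therefore no independent check of the control ratios. The part of the shared split in them was not tested.

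Replication genes had different medians in the libraries, a difference that was not tested. The replication list had a median log2 ratio of 0.90 in induced cells (45 of 54 genes higher), against 0.06 in control cells (0 of 55), and 0.67 against -0.045 with TMM factors. PCNA stood at 125 CPM in induced cells at or above the threshold and 66.5 CPM in other induced cells, and at 127 and 134 CPM in mitotic and other control cells. The levels in both high-scoring groups lay close together, and those in the remaining cells did not. Mitochondrial percent had its 5th percentile at 1.17 in other induced cells and at 8.89 in other control cells. The limit on mitochondrial percent and MALAT1 described above was set on control cells and applied to both libraries. It kept 51 of 81 induced cells at or above the threshold and 355 of 585 other induced cells. Of control cells it kept 212 of 239 mitotic and 659 of 717 other cells. Under this limit the induced median was 0.77 for the replication list and 1.49 for the mitosis lists. VIM stood at 1326 CPM in induced cells at or above the threshold and 1537 CPM in other induced cells, against 128 CPM in mitotic control cells. Mesenchymal genes summed to 9827 CPM in the induced cells at or above the threshold and 14798 CPM in the other induced cells. Of 20 measured 0 were higher and 9 lower (median log2 ratio -0.46), beside 12.6% higher and 7.25% lower among all genes of that contrast. Between induced cells at or above the threshold and mitotic control cells, 480 of 8972 genes (5.35%) were higher and 145 (1.62%) lower. CCNB1 stood at 453 and 441 CPM and PLK1 at 302 and 294 CPM in the same order.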

How the data were processed

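Per the labels, 1 library with and 1 without doxycycline were made by 10x Genomics droplet sequencing of transcript 3' ends. Tools named in the submitters' processing notes are kallisto and bustools. The genome build is not given in the sources. The authors deposited counts, whole numbers of molecules for 36027 genes and 1622 cells, with gene symbols in a table of their own, in which 376 rows repeat a symbol (the row with the most counts was used). The deposited annotation gives the type of each cell, the mitochondrial percent computed by the authors (at most 19.97) and a size factor, a ratio set by the authors that was not used. The control library held 95350640 counts and the induced library 80359736. No source used here tells how doublets and poor cells were removed.

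Group sums of counts were scaled to CPM, and log2 ratios were taken with a pseudocount of 1 CPM over genes with at least 10 CPM in either group. Ratios of sums have exact conditional intervals and shares exact Clopper-Pearson intervals, at 95%. The intervals of shares take each cell as a separate draw, though the cells of a group share 1 library. No test was run, since cells are not replicates. A count of 0 allows up to 3 counts, which is 0.119 CPM in mitotic and 0.0428 CPM in other control cells. For values per cell, cells were thinned to 51000 counts. The members and the 40 gene lists were chosen with earlier results of these data known. Named genes are the rule genes, the 15 highest and 15 lowest log2 ratios among genes with at least 25 CPM and 50 counts, any measured member of the mitosis lists, the 3 highest and 2 lowest members of other lists, and MYCN, HRAS and other RAS genes, and further list members and markers were named after their values were seen. A few genes picked this way are left out of the text. For scaling alone, TMM factors were taken from edgeR 4.0.16 and size factors from DESeq2 1.42.0, and the scripts were tested on simulated data. Alternatives were other scalings, per-cell means, thinning, pseudocounts, filters, cells left out, other choices of members and another comparison group, and a limit on mitochondrial percent and MALAT1 was added after seeing the data. Promoters are the RefSeq windows of GRCh38.p14, matched by symbol.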

Additional observations from a re-analysis of the deposited data

Results flagged for a closer look

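DBH, dopamine beta-hydroxylase, had opposite differences in the libraries. In induced cells at or above the control threshold it stood at 91.8 CPM, against 55.6 CPM in other induced cells, a log2 ratio of 0.71. In mitotic control cells it stood at 65.1 CPM, against 106 CPM in other control cells, a log2 ratio of -0.70. The control ratio was under 1.5-fold in 1 of the alternatives, at -0.54. In the induced contrast single genes were not followed under the alternatives, and TMM factors moved the median of all genes there by -0.24. DBH was uneven among thinned control cells, with 0 to 28 counts in mitotic and 0 to 98 counts in other cells. With 1 library of each kind the difference between these ratios was not tested.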

How the results depend on the processing

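No paired analysis was possible because each condition had 1 library. Of 148 named genes past 1.5-fold, none turned direction over 3798 values under the alternatives. Of the 148, 22 were under 1.5-fold in at least 1 alternative. The 148 include the rule genes, by which members were chosen. They also include the genes with the highest and lowest log2 ratios, which were picked from the same cells. The lack of turns is therefore no independent check of direction. Intervals of the ratios widen as the counts of a gene fall, and the level of a single cell is limited by its counts.

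The number of lower genes in mitotic cells (66) was 144 with TMM and 144 with DESeq2 scaling, 105 with totals without ribosomal protein and mitochondrial genes, 110 with per-cell means, 26 with a pseudocount of 5 CPM, 218 without a filter, 10 with a filter at 50 CPM, 210 with the top 10% as members and 282 against the lowest quartile. The number of higher genes (298) was 136 at 50 CPM, 611 for the top 10% and 802 against the lowest quartile. The median of the replication list (0.06) was -0.045 with TMM, -0.047 with DESeq2 scaling, -0.035 with thinned cells and 0.70 against the lowest quartile, and that of the mitosis lists (0.86) was 1.23 at 50 CPM and 1.59 against the lowest quartile. The ratio of genes per cell (1.06) was 1.03 after thinning. In the induced contrast 522 genes were higher and 1414 lower with TMM, 523 and 1414 with DESeq2 scaling, 2089 and 1513 without a filter, 437 and 244 at 50 CPM, and 1834 and 1170 at the top 10% threshold. Its replication median was 0.67 with TMM, 0.67 with DESeq2 scaling, 0.76 with a pseudocount of 5 CPM, 0.73 at the top 10% threshold and 0.73 without ASPM in the rule, and its mitosis median 1.89 at 50 CPM. Its centrosome median was -0.066 at 50 CPM, where 2 genes were left. The share of induced cells above the threshold (12.2%) was 3.15% at the top 10% threshold and 16.7% where the third of control cells with the highest scores set it. The fewer genes left at 50 CPM follow from that filter, and the cause of the other differences was not tested.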
